A study of Mus musculus with 6 samples.

Results

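Imprinted genes are expressed mainly or wholly from the copy inherited from one parent. A list of 43 known mouse imprinted genes was followed in whole testes of Stra8-deficient and wild-type mice. The members were chosen by name from what is known of imprinting in mice, with earlier results of these data known. All 43 were among the 21786 gene symbols listed for all 6 libraries. By the copy known to be expressed where they are imprinted, 22 members were classed as paternally expressed and 16 as maternally expressed. The other 5 (Blcap, Gnas, Grb10, H13 and Inpp5f) were classed as transcript- or tissue-dependent. Imprinting in the testis was not measured, so a class need not hold there. The 43 genes lie on 11 chromosomes, with 20 of them on chromosome 7 and 6 on chromosome 6.

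Polyadenylated RNA was sequenced from 3 Stra8 -/- males aged 1 year and from 3 wild-type males, whose age was 2 to 4 months. Each library came from a separate C57BL/6 male. STRA8 is a retinoic acid-induced protein that germ cells need to enter meiosis. The mutant testes were described as strongly enlarged and made up mostly of cells like type-A spermatogonia, a class that includes the stem and early progenitor cells. Age and cell makeup thus both followed genotype and cannot be told apart from it. The 2 parental copies of a gene have the same sequence in such inbred animals, and the read counts do not show which copy was transcribed.

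In the germ line, the DNA methylation marks that tell the parental copies apart are erased in the embryo and set again according to the sex of the animal. In males this happens before birth at a few control regions, among them those of H19 with Igf2, of Dlk1 with Meg3, and of Rasgrf1, whereas most other control regions gain their marks in the oocyte. Many imprinted genes act on fetal and placental growth, and paternally expressed members often promote growth while maternally expressed members often restrain it.

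Promoter sequences of the 2 called members with the largest rise and the 2 with the largest fall among those with an entry show how unlike these loci are in CG dinucleotides, the sites of DNA methylation, although the expression data hold no methylation measurement. Each is the RefSeq window of GRCm38.p6 from 250 bases before to 50 bases after the gene's start, read along the gene's strand, with every CG in capitals. Phlda2 was taken from the minus strand at chr7:143502475-143502774, Dio3 from the plus strand at chr12:110278980-110279279, Kcnq1ot1 from the minus strand at chr7:143296498-143296797, and Asb4, at the first of 2 listed starts, from the plus strand at chr6:5383136-5383435.
Phlda2: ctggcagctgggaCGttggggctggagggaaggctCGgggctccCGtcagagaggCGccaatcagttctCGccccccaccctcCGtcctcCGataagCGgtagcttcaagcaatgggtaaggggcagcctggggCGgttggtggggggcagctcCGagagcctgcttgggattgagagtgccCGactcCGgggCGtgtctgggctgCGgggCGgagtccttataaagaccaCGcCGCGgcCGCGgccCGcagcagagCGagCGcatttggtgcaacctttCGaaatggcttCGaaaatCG
Dio3: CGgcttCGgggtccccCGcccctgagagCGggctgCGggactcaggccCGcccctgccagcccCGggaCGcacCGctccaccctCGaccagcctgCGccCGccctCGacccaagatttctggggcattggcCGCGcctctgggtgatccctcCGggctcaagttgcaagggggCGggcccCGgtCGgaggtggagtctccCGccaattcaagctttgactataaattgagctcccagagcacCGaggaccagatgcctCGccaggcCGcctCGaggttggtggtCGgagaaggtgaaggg
Kcnq1ot1: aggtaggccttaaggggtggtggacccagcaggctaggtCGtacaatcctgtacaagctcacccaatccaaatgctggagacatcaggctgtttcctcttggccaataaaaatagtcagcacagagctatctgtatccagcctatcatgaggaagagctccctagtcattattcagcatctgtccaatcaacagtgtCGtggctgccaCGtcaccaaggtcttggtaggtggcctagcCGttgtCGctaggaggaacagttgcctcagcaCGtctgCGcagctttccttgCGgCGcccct
Asb4: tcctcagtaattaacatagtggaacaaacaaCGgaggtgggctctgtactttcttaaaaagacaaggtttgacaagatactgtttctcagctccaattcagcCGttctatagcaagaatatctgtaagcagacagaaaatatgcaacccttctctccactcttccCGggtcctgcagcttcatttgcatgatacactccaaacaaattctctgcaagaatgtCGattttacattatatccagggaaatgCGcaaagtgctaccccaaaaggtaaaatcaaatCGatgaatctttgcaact

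The windows of Phlda2 and Dio3 held 26 and 25 CG dinucleotides, and those of Kcnq1ot1 and Asb4 held 9 and 6. Among all 32817 promoter windows of this length, 16.9% held at least as many as Phlda2, 18.4% as many as Dio3, 45.8% as many as Kcnq1ot1 and 56.4% as many as Asb4. Impact, on chromosome 18, was left out of the promoter windows, and Ins2, H19, Kcnq1, Cdkn1c, Rtl1, Peg10, Sgce and Dcn had no window. The median over the 34 members used was 17, against 7 over all windows. It was 17 for the 15 members that rose, 15 for the 7 that fell and 25 for the 9 that were tested and not called, so the count did not order the members by response. The letters TGCCGC, the core of the sequence bound by the imprint-keeping protein ZFP57 when methylated, were searched on both strands (GCGGCA on the other), and each match contains 1 of the CG dinucleotides counted above. They occurred in 8 of the 34 windows (23.5%) and in 11.6% of all windows. A match is a stretch of letters and not a bound site.

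A library held 6733128 to 12425689 reads in genes. The Stra8-deficient libraries were far less alike than the wild-type ones, with a biological coefficient of variation of 38.1% against 7.36%. Levels are in reads per 1000000 gene reads (CPM) after the scaling between libraries described below. Stra8 itself had 21.1, 23.7 and 18.1 CPM in Stra8-deficient testes, against 18.7, 18.6 and 17.0 CPM in wild type. It was not called (edgeR quasi-likelihood test, adjusted p = 0.384), so its level did not check the labels. Markers of undifferentiated spermatogonia rose in 14 of 14 tested genes and their summed level was 1600 to 2591 CPM in Stra8-deficient testes, against 78.2 to 86.3 CPM in wild type, where Pax7 had 0 reads. Spermatid markers fell in 12 of 12, with a sum of 17.7 to 25.0 CPM in Stra8-deficient testes, where Catsper1 had 0 reads, against 27864 to 32622 CPM in wild type. Sertoli markers fell in 9 of 12, macrophage markers rose in 9 of 10, endothelial markers rose in 3 of 6, and peritubular and stromal markers rose in 4 and fell in 3 of 12. Over all genes tested, 39.0% rose and 36.7% fell, and the marker counts were not tested against these shares. Of 10 Leydig cell markers, 0 were called by edgeR, 0 by DESeq2 and 0 at an unadjusted p under 0.05. In whole tissue, fewer cells of a type and less RNA per cell cannot be told apart.

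Levels are given in CPM scaled by edgeR's trimmed mean of M-values (TMM), and a gene is said to have risen or fallen in Stra8-deficient testes when edgeR's quasi-likelihood test gave a Benjamini-Hochberg adjusted p under 0.05 over all 15018 genes tested. Of the 43 members, 38 passed the filter on low counts and 26 (68.4%) were called, 18 higher and 8 lower in Stra8-deficient testes. Among all genes tested, 75.8% were called, 39.0% higher and 36.7% lower, so the share called in all was no larger in the members than in the background. By direction, 47.4% of the tested members were higher and 21.1% lower; no test of these shares against the background was made. The genotypes did not overlap in 25 of the 38 members, against 80.2% of all genes tested. The median log2 fold change was 0.61 over the members and 0.11 over all genes. Among the members tested, 17 rose (44.7%) and 7 fell (18.4%) at least 2-fold, against 32.7% and 32.0% of all genes tested.

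Split by expressed copy, 8 of 17 tested paternally expressed members rose and 3 fell, with a median log2 fold change of 0.36. Of the 16 maternally expressed members, 8 rose and 4 fell, with a median of 1.27. Of the 5 with transcript- or tissue-dependent imprinting, 2 rose and 1 fell, with a median of 0.22. Both directions thus occurred in each class, but they were also common over all genes tested, where 39.0% rose and 36.7% fell. The median over all genes was 0.11. Finding both directions in a class is therefore no result about that class. The classes were not tested against each other or against the shares of all genes.

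**Figure D1:**
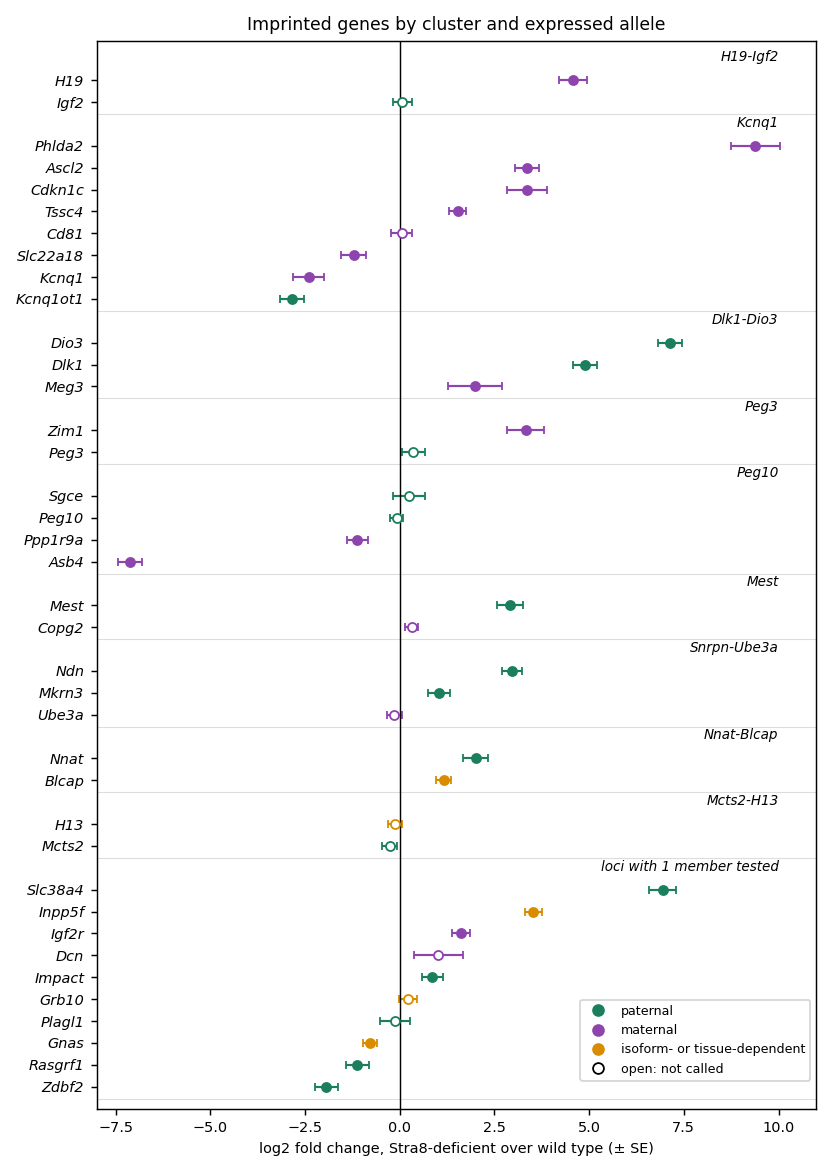
Log2 fold change of the 38 tested imprinted genes, Stra8-deficient over wild type, with its standard error (horizontal axis), grouped by imprinted locus and coloured by the copy known to be expressed. Filled points are called and open points are not, and the values run from 9.39 for Phlda2 to -7.13 for Asb4.

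Among the members of the insulin-like growth factor pathway, Igf2 was not called, Ins2 was too low to test and Igf2r rose. Igf2, a fetal growth factor, had 26.1, 16.1 and 20.7 CPM in Stra8-deficient testes, against 22.3, 21.7 and 16.3 CPM in wild type. The genotypes overlapped, with a log2 fold change of 0.06 ± 0.25 (SE) that was negative with RLE scaling and with DESeq2 (edgeR, adjusted p = 0.843). Ins2, which encodes insulin, had 0 reads in each Stra8-deficient library, against 1, 3 and 0 in wild type. The genotypes overlapped at 0, and a difference was not detectable at this depth. Igf2r, the receptor that clears IGF2, had 184, 229 and 126 CPM in Stra8-deficient testes, against 63.1, 55.1 and 56.6 CPM in wild type. Every Stra8-deficient library was above every wild-type one, and Igf2r rose 3.08-fold (log2 1.62 ± 0.23, edgeR adjusted p = 1.76e-04). Grb10, an adaptor that dampens insulin and IGF receptor signalling, was not called at 59.8 ± 18.2 CPM in Stra8-deficient testes and 51.5 ± 3.38 CPM in wild type (SD, n = 3 each).

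Phlda2, which limits growth of the placenta, had the largest fold change of the members. It had 187, 133 and 347 CPM in Stra8-deficient testes, against 0, 0.282 and 0.732 CPM in wild type. The wild-type values rest on 0, 2 and 4 reads, against 8455 reads over the Stra8-deficient libraries, so the gene was near the limit of detection in wild type and abundant in the mutant. The fitted log2 fold change was 9.39 ± 0.65 (edgeR, adjusted p = 1.95e-06), the ratio of read rates was 754 with a 95% counting interval of 346 to 2056, and the fitted value was 8.80 without the first and 10.42 without the third wild-type library. Cdkn1c, an inhibitor of cyclin-dependent kinases from the same chromosome 7 cluster, had 393, 80.9 and 229 CPM in Stra8-deficient testes, against 24.0, 23.0 and 21.2 CPM in wild type. The groups were apart, but the Stra8-deficient libraries differed 4.86-fold among themselves. Cdkn1c rose 10.3-fold (log2 3.36 ± 0.52, edgeR adjusted p = 3.89e-04), with a log2 value of 2.73 without the first Stra8-deficient library.

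Dio3 and Dlk1, of the Dlk1-Dio3 locus on chromosome 12, rose by larger factors than most called members. Dio3, an enzyme that inactivates thyroid hormone, had 61.0, 70.9 and 50.8 CPM in Stra8-deficient testes, against 0.312, 0.564 and 0.366 CPM in wild type. The Stra8-deficient libraries lay close together and wild type held 8 reads in all, and the rise was 140-fold (log2 7.13 ± 0.32, edgeR adjusted p = 1.24e-07). Dlk1, a membrane protein related to Notch ligands and found on fetal and progenitor cells, had 81.8, 59.0 and 72.8 CPM in Stra8-deficient testes, against 2.18, 3.38 and 1.46 CPM in wild type. All Stra8-deficient libraries were above all wild-type ones, at 29.7-fold (log2 4.89 ± 0.32, edgeR adjusted p = 1.06e-06). Rtl1, a retrotransposon-derived gene of the same locus needed in the placenta, had 10 reads in the Stra8-deficient libraries and 1 in wild type. It was not tested, and its ratio of 5.35 had a counting interval of 0.761 to 232.

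Slc38a4, an amino acid transporter of placenta and liver, had 118, 134 and 81.2 CPM in Stra8-deficient testes, against 0.779, 1.27 and 0.549 CPM in wild type. The 3 mutant libraries agreed to within 1.65-fold and the rise was 123-fold (log2 6.94 ± 0.35, edgeR adjusted p = 2.28e-07). Plagl1, a zinc finger transcription factor that restrains proliferation, was not called at 4.82 ± 1.95 CPM in Stra8-deficient testes and 5.26 ± 1.17 CPM in wild type (SD, n = 3 each). Mest, a member of the hydrolase family active in fetal growth, had 65.2, 34.1 and 30.7 CPM in Stra8-deficient testes, against 4.68, 6.48 and 6.23 CPM in wild type. It rose 7.46-fold with no overlap (log2 2.90 ± 0.34, edgeR adjusted p = 5.42e-05).

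**Figure D2:**
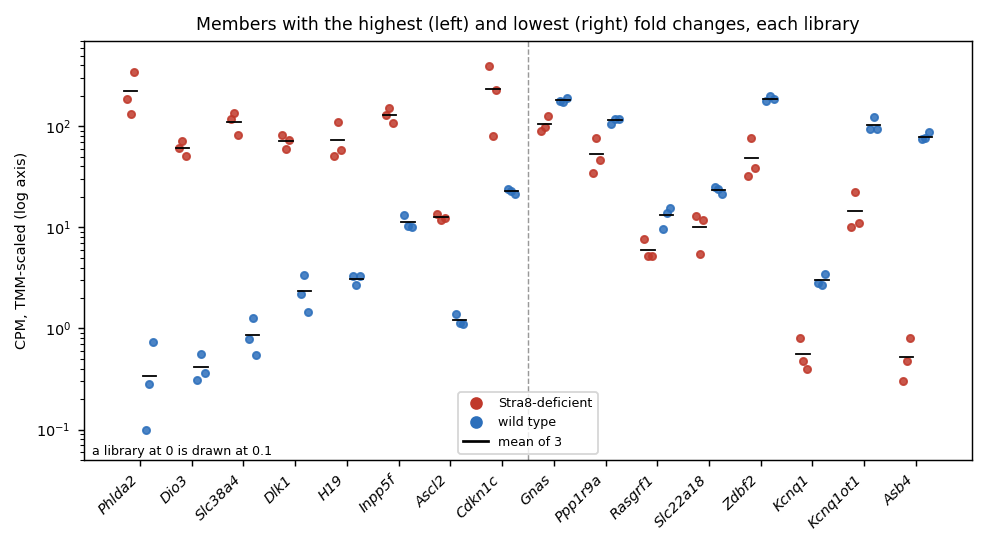
CPM of each library on a log axis for the called members with the 8 largest (left of the dashed line) and 8 smallest (right) log2 fold changes; red points are Stra8-deficient libraries, blue points wild-type libraries, and bars the means of 3. Phlda2 is at 133 to 347 CPM in Stra8-deficient testes against 0 to 0.732 CPM in wild type, and Asb4 at 0.301 to 0.802 CPM against 74.8 to 86.8 CPM. The genotypes are apart in all 16 genes, but these were chosen by call and fold change, so that is no separate result. Among all genes tested, 80.2% do not overlap.

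The long non-coding RNAs of imprinted loci did not move together. H19, which is transcribed from the maternal copy beside Igf2, had 50.8, 111 and 58.0 CPM in Stra8-deficient testes, against 3.27, 2.68 and 3.30 CPM in wild type. It rose 23.8-fold without overlap (log2 4.57 ± 0.37, edgeR adjusted p = 4.36e-06), whereas Igf2 beside it was not called. Kcnq1ot1, the paternal RNA that silences its neighbours on the same chromosome copy, had 10.0, 22.3 and 11.1 CPM in Stra8-deficient testes, against 93.1, 124 and 94.3 CPM in wild type. It fell 7.20-fold, with every Stra8-deficient library below every wild-type one (log2 -2.85 ± 0.32, edgeR adjusted p = 4.05e-05). Meg3, the maternal RNA of the Dlk1-Dio3 locus, had 29.3, 14.2 and 94.7 CPM in Stra8-deficient testes, against 6.86, 8.74 and 19.8 CPM in wild type. The groups overlapped, since the second Stra8-deficient library lay below the third wild-type one, and the rise of 3.94-fold was just past the threshold (log2 1.98 ± 0.72, edgeR adjusted p = 0.0366). Without the third Stra8-deficient library the log2 value was 0.88, and the call was lost without that library, without the first Stra8-deficient library, without the first or the second wild-type library, and without the low-count filter.

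In the Kcnq1 cluster of chromosome 7, of which Phlda2, Cdkn1c and Kcnq1ot1 are part, 4 of 8 members rose and 3 fell. Among all genes tested, 75.8% were called, 39.0% higher and 36.7% lower. The 8 members were not tested against these shares, so the count is no result about the cluster. Ascl2, a transcription factor of trophoblast and stem cells, had 13.5, 11.9 and 12.3 CPM in Stra8-deficient testes, against 1.40, 1.13 and 1.10 CPM in wild type. Its libraries were tight in both genotypes and it rose 10.3-fold (log2 3.36 ± 0.32, edgeR adjusted p = 1.37e-05). Tssc4, known in human cells as an assembly factor of the spliceosome, rose 2.88-fold (log2 1.53 ± 0.22, edgeR adjusted p = 1.73e-04). Cd81, a membrane protein of the tetraspanin family, was not called at 108 ± 40.3 CPM in Stra8-deficient testes and 104 ± 7.55 CPM in wild type (SD, n = 3 each).

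Kcnq1 and Slc22a18 of this cluster fell, as Kcnq1ot1 did. Kcnq1, a potassium channel subunit, had 0.802, 0.476 and 0.401 CPM in Stra8-deficient testes, against 2.81, 2.68 and 3.48 CPM in wild type. It fell 5.33-fold (log2 -2.41 ± 0.42, edgeR adjusted p = 6.57e-04) over 19 reads in the Stra8-deficient and 56 in the wild-type libraries. Kcnq1ot1 lies within Kcnq1 on the opposite strand, and since the authors' handling of strand is not stated, reads of the pair cannot be told apart. Slc22a18, a membrane transporter of the organic cation family, had 13, 5.42 and 11.9 CPM in Stra8-deficient testes, against 25.1, 24.1 and 21.2 CPM in wild type. It fell 2.32-fold without overlap (log2 -1.21 ± 0.33, edgeR adjusted p = 0.00809).

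Of the members at the Peg10 locus of chromosome 6, the maternally expressed Asb4 and Ppp1r9a fell. The paternally expressed Peg10 and Sgce were not called. Other tested imprinted genes of chromosome 6 outside the member list were mixed: Pon2 and Dlx5 fell, Klf14 rose, and Pon3 and Casd1 were not called. Asb4, a subunit of a ubiquitin ligase, had 0.301, 0.476 and 0.802 CPM in Stra8-deficient testes, against 74.8, 75.7 and 86.8 CPM in wild type. This was the largest fall of the members, 140-fold (log2 -7.13 ± 0.32, edgeR adjusted p = 1.22e-07), over 20 reads against 1491. Ppp1r9a, the actin-binding protein neurabin, had 34.8, 77.2 and 45.9 CPM in Stra8-deficient testes, against 106, 119 and 119 CPM in wild type. It fell 2.18-fold with no overlap (log2 -1.12 ± 0.28, edgeR adjusted p = 0.00484). Peg10, a retrotransposon-derived gene needed in the placenta, had 126, 137 and 111 CPM in Stra8-deficient testes, against 145, 130 and 122 CPM in wild type. The libraries overlapped, with a log2 value of -0.08 ± 0.17 that was positive under 2 other scalings (edgeR, adjusted p = 0.657). Sgce, the membrane protein epsilon-sarcoglycan, was not called at 11.1 ± 5.83 CPM in Stra8-deficient testes and 9.46 ± 0.781 CPM in wild type (SD, n = 3 each), but passed the threshold as higher without the first Stra8-deficient library (log2 0.59).

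Zinc finger members also moved in both directions. Zim1 was at low levels, with 2.31, 3.14 and 2.88 CPM in Stra8-deficient testes, against 0.312, 0.141 and 0.366 CPM in wild type. It rose 9.99-fold (log2 3.32 ± 0.49, edgeR adjusted p = 2.27e-04) over 99 reads against 5, which gives a ratio of 10.6 with a counting interval of 4.39 to 33.4. Peg3, its paternally expressed neighbour, had 14.3, 25.6 and 14.1 CPM in Stra8-deficient testes, against 15.6, 11.6 and 15.0 CPM in wild type. The second Stra8-deficient library was the highest and the others lay within the wild-type range, and Peg3 was not called (log2 0.36 ± 0.30, edgeR adjusted p = 0.298). Zdbf2, known in mice for a role in feeding of the newborn, had 32.4, 76.3 and 38.4 CPM in Stra8-deficient testes, against 179, 197 and 187 CPM in wild type. It fell 3.83-fold with no overlap (log2 -1.94 ± 0.31, edgeR adjusted p = 3.60e-04). Its promoter window held 3 copies of the TGCCGC letters.

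The genes of the Snrpn-Ube3a locus of chromosome 7 are known from the Prader-Willi and Angelman syndromes. Ndn, a MAGE-family protein that restrains growth of neurons, had 51.4, 31.7 and 44.5 CPM in Stra8-deficient testes, against 4.36, 6.34 and 5.68 CPM in wild type. It rose 7.77-fold (log2 2.96 ± 0.27, edgeR adjusted p = 1.07e-05), and the groups were well apart. Mkrn3, a RING-finger protein that acts on the timing of puberty, had 10.3, 8.09 and 9.09 CPM in Stra8-deficient testes, against 4.21, 4.93 and 4.21 CPM in wild type. It rose 2.05-fold (log2 1.04 ± 0.29, edgeR adjusted p = 0.00913), a call lost without the first wild-type library. Ube3a, a ubiquitin ligase, had 59.7, 86.7 and 75.8 CPM in Stra8-deficient testes, against 71.2, 86.7 and 87.7 CPM in wild type, with overlap and no call.

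The remaining genes of that locus had few reads and were not tested. Magel2, another MAGE-family gene, had 11, 4 and 6 reads in Stra8-deficient testes, against 0, 1 and 0 in wild type. The ratio of rates was 11.2 with a counting interval of 1.81 to 465, and the authors' deposited table gives it a log2 ratio of 3.53 with a false discovery rate of 0.00402. Peg12, which binds the kinase GSK3, had 27 reads in the Stra8-deficient libraries and 16 in wild type, a ratio of 0.903 with an interval of 0.469 to 1.79. Snrpn, a splicing protein, had 15 reads in the Stra8-deficient libraries and 8 in wild type, a ratio of 1.00 with an interval of 0.399 to 2.73. Snurf, which shares its transcript with Snrpn, had 0 reads in all 6 libraries, and since reads of the pair cannot be told apart the level of Snrpn is uncertain.

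Of the nested pairs on chromosome 2, one rose and the other was not called. Nnat, a small membrane protein of brain and endocrine cells, had 11.8, 15.2 and 11.2 CPM in Stra8-deficient testes, against 2.03, 3.67 and 3.85 CPM in wild type. It rose 4.01-fold (log2 2.00 ± 0.34, edgeR adjusted p = 5.52e-04). Blcap, in whose intron Nnat lies, had 47.3, 42.9 and 40.2 CPM in Stra8-deficient testes, against 16.7, 21.6 and 20 CPM in wild type. Neither gene overlapped between genotypes, and Blcap rose 2.24-fold (log2 1.16 ± 0.20, edgeR adjusted p = 5.05e-04). Mcts2, a retrogene copy of the translation factor gene Mcts1, had 22.7, 23.8 and 31.6 CPM in Stra8-deficient testes, against 31.5, 31.2 and 31.7 CPM in wild type. H13, the signal peptide peptidase that hosts it, had 86.0, 104 and 125 CPM in Stra8-deficient testes, against 116, 112 and 113 CPM in wild type. Both ranges overlapped, both log2 values (-0.27 ± 0.20 and -0.12 ± 0.18) were 0 or above under 2 other scalings, and Mcts2 passed the threshold as lower without the third Stra8-deficient library (log2 -0.44). Reads of Mcts2 may be shared with Mcts1, which had 4.81, 4.28 and 6.89 CPM in Stra8-deficient testes and 2.34, 2.82 and 2.93 CPM in wild type.

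Inpp5f and Impact, which lie outside these loci, both rose. Inpp5f, a phosphoinositide phosphatase, had 129, 151 and 108 CPM in Stra8-deficient testes, against 13.1, 10.4 and 10.1 CPM in wild type. It rose 11.5-fold (log2 3.53 ± 0.22, edgeR adjusted p = 7.54e-07), with tight libraries in both genotypes. Impact, an inhibitor of the stress kinase GCN2, had 17.8, 30.7 and 26.4 CPM in Stra8-deficient testes, against 14.5, 11.3 and 15.6 CPM in wild type. It rose 1.82-fold (log2 0.86 ± 0.27, edgeR adjusted p = 0.0154), a call lost without the second Stra8-deficient or the second wild-type library.

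Gnas, which encodes the stimulatory G protein alpha subunit, had 89.4, 98.8 and 126 CPM in Stra8-deficient testes, against 176, 172 and 191 CPM in wild type. It fell 1.72-fold with no overlap (log2 -0.78 ± 0.18, edgeR adjusted p = 0.00340), and the counts do not separate its imprinted and biallelic transcripts. Rasgrf1, an activator of Ras, had 7.72, 5.23 and 5.15 CPM in Stra8-deficient testes, against 9.66, 14.0 and 15.7 CPM in wild type. It fell 2.18-fold (log2 -1.12 ± 0.31, edgeR adjusted p = 0.00920), with the highest Stra8-deficient library below the lowest wild-type one. The calls of Gnas, Rasgrf1, Ppp1r9a and Slc22a18 were lost when libraries were scaled by their size alone, a scaling that raises the median log2 value over all genes to 0.72 and the share of higher among called genes to 63.6%, against 0.11 and 51.5% with TMM.

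Dcn, the matrix proteoglycan decorin of connective tissue, had 23.7, 30.2 and 141 CPM in Stra8-deficient testes, against 33.0, 28.8 and 34.8 CPM in wild type. A single library carried the difference, and Dcn was not called (log2 1.02 ± 0.64, edgeR adjusted p = 0.181, and -0.26 without the third Stra8-deficient library). The same library had the highest level of all libraries for several members, among them Phlda2, Meg3, Cd81, Grb10 and H13. Other members, such as Cdkn1c and H19, were highest in another Stra8-deficient library. Summed markers of other cell types also varied between the Stra8-deficient libraries, some with their highest and some with their lowest sum in the third. Leydig cell markers were 356, 19.1 and 2838 CPM in the Stra8-deficient libraries, against 1288, 870 and 1359 CPM in wild type. Macrophage markers were 710, 556 and 2071 CPM in Stra8-deficient testes, against 124, 113 and 120 CPM in wild type. Peritubular and stromal markers were 371, 447 and 701 CPM in Stra8-deficient testes, against 269, 242 and 276 CPM in wild type. The third Stra8-deficient library was thus the highest of its genotype for these lists. Sertoli markers were 495, 287 and 1279 CPM in Stra8-deficient testes, against 2705, 2482 and 2419 CPM in wild type. Endothelial markers were lowest in the third, at 233, 166 and 90.5 CPM in Stra8-deficient testes, against 61.4, 61.0 and 72.1 CPM in wild type. The part of these cells in the members' values was not tested.

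**Figure D3:**
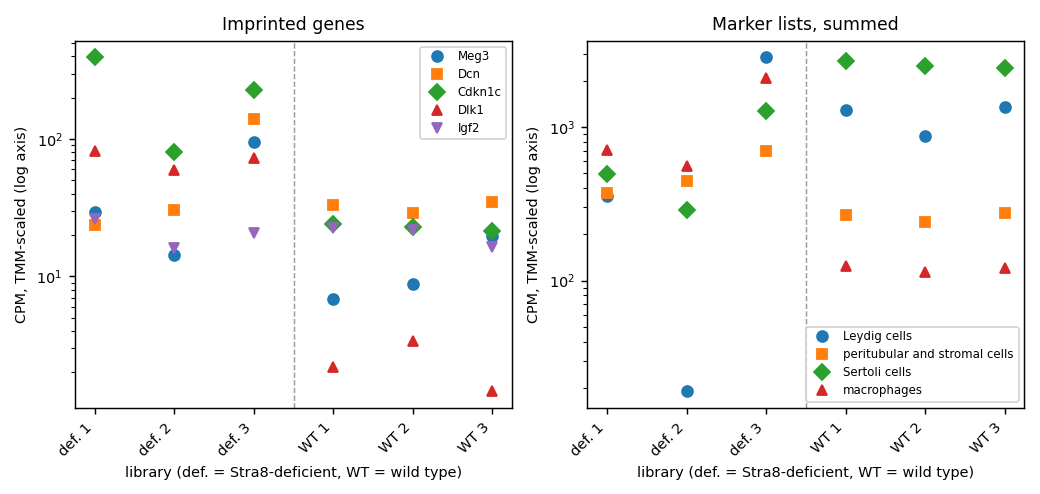
CPM in each library on a log axis for 5 imprinted genes (left) and for the sums of 4 marker lists (right), with Stra8-deficient libraries 1 to 3 left of the dashed line and wild-type libraries 1 to 3 right of it. Meg3 and Dcn are highest in the third Stra8-deficient library, at 94.7 and 141 CPM, where Leydig cell markers reach 2838 CPM, while Cdkn1c is highest in the first, at 393 CPM.

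Per length, the order of the members changed between genotypes. The TMM-scaled CPM was divided by exon length, giving reads per kilobase of exon per 1000000 scaled reads. Phlda2 was first in Stra8-deficient testes at 198 ± 99.7, followed by Cdkn1c at 115 ± 76.6, Cd81 at 37.3 ± 14.0, Tssc4 at 36.0 ± 8.53 and Copg2 at 35.7 ± 4.10 (SD, n = 3). The mean ± SD ranges of neighbours in this order overlapped, although Cdkn1c was above Cd81 in every Stra8-deficient library. In wild type the order was Cd81 at 36.2 ± 2.62, Mcts2 at 34.5 ± 0.292, Copg2 at 28.5 ± 3.02, Asb4 at 20.1 ± 1.70 and Peg10 at 19.8 ± 1.74 (SD, n = 3). Cd81 and Mcts2, and Asb4 and Peg10, lay within their spread. Phlda2 was at rank 36 of 43 in wild type and Asb4 at rank 41 in Stra8-deficient testes.

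To compare genes of a locus without the scaling between libraries, the log2 ratio of reads of a paternally expressed gene to a partner in the same locus was taken within each library, with a pseudocount of 1, for 9 pairs. The ratio did not overlap between genotypes in 8 of the 9 pairs, 4 higher and 4 lower in Stra8-deficient testes. This share of 88.9% is near the 80.2% of single genes that did not overlap, so the count says little about these pairs. An exact two-sided permutation test of 3 against 3 libraries cannot go below p = 0.1, which these 8 pairs reached (0.113 after Benjamini-Hochberg adjustment over the 9), so none passed the threshold.

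Igf2 over H19 was -0.96, -2.79 and -1.48 on the log2 scale in Stra8-deficient testes, against 2.71, 2.95 and 2.24 in wild type. H19 thus had more reads than Igf2 in each Stra8-deficient library and fewer in each wild-type one, and the means differed by -4.38. Kcnq1ot1 over Cdkn1c was -5.28, -1.86 and -4.36 in Stra8-deficient testes, against 1.95, 2.43 and 2.14 in wild type, a difference of -6.00 that also crossed 0. Peg10 over Asb4 was 8.30, 7.91 and 6.99 in Stra8-deficient testes, against 0.95, 0.78 and 0.49 in wild type, a difference of 7.0 (6.30 with a pseudocount of 5).

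Dlk1 over Meg3 was 1.48, 2.05 and -0.38 in Stra8-deficient testes, against -1.58, -1.33 and -3.60 in wild type. The groups did not overlap although Meg3 alone did, and the means of 1.05 ± 1.27 and -2.17 ± 1.24 (SD, n = 3 each) differed by 3.22. Mest over Copg2, a coat protein of Golgi vesicles whose gene overlaps Mest, was -2.15 ± 0.55 in Stra8-deficient testes and -4.63 ± 0.27 in wild type (SD, n = 3 each). Copg2 itself had 188, 201 and 160 CPM in Stra8-deficient testes, against 144, 163 and 132 CPM in wild type, and was not called (log2 0.32 ± 0.17, edgeR adjusted p = 0.113). Copg2 passed the threshold, as higher, with upper-quartile factors, with library size alone and without the third Stra8-deficient library (log2 0.60, 0.94 and 0.40). As the handling of strand is not stated, reads of the overlap of Mest and Copg2 may be shared or dropped, which limits this ratio.

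Peg3 over Zim1 was 2.61 ± 0.36 in Stra8-deficient testes and 5.08 ± 0.29 in wild type (SD, n = 3 each). This difference of -2.47 was -1.33 with a pseudocount of 5, since Zim1 had 5 wild-type reads. Nnat over Blcap differed by 0.82 and Mcts2 over H13 by -0.16, both without overlap. Snrpn over Ube3a differed by 0.48 with overlap (exact two-sided permutation p = 0.7).

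**Figure D4:**
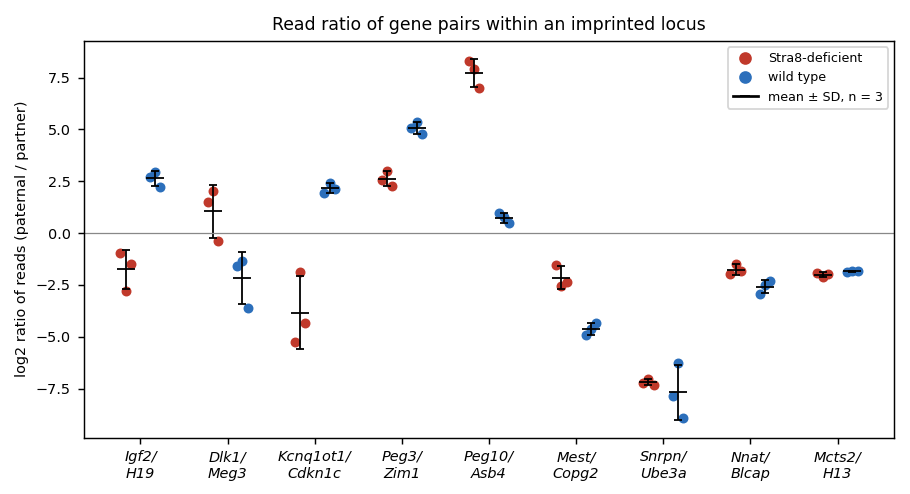
Log2 ratio of reads of a paternally expressed gene over its partner within each library (vertical axis) for 9 pairs, with Stra8-deficient libraries in red, wild-type libraries in blue, and mean ± SD of 3 in black. Igf2 over H19 and Kcnq1ot1 over Cdkn1c lie below 0 in all 3 Stra8-deficient libraries and above 0 in all 3 wild-type ones, while Snrpn over Ube3a overlaps.

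The members were also looked up in the authors' deposited table of their own comparison. It lists all 43, with 20 higher and 8 lower in Stra8-deficient testes at a false discovery rate under 0.05, and the 26 members called here are among these in the same direction. That table also has as higher Magel2, which was not tested here, and Dcn, which was tested and not called. It gives Dcn a log2 ratio of 1.01 with a false discovery rate of 0.0345.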

How the data were processed

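Poly(A) RNA of 6 whole testes was sequenced, 3 Stra8-deficient and 3 wild type. The deposited counts are unnormalised whole numbers of reads for every gene symbol. The authors' table of their own comparison holds log2 ratios and p-values with a false discovery rate, per the file headers. TopHat, HTSeq, edgeR and the mm9 build are named per the submitters' processing notes; for versions, annotation and strand handling the entry is "not given in the sources used here". In the third Stra8-deficient file 23285 symbols are listed, against 22055 in the other 5, so the 21786 shared symbols were used. HTSeq's counters of reads outside genes (20.9% to 34.5% of a library) were left out, and unmatched sample columns numbered 0.

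Genes were filtered with filterByExpr, which kept 15018, scaled by TMM and fitted with genotype as the one term (edgeR 4.0.16, glmQLFit with robust estimation, R 4.3.3), with Benjamini-Hochberg adjustment over all genes tested. The fit was also run on simulated counts with equal spread in both genotypes and few changed genes. These data differ in both respects, so that run does not check the calls made here. Standard errors were derived from the F statistic. The spread between these 3 and 3 males is what the p-values measure. No libraries were duplicates: the chi-square per degree of freedom between replicate pairs was 2.74 to 65.2, where counting error alone gives about 1. Exon lengths came from GENCODE M21 and promoters from RefSeq. Counting intervals (95%, exact) and the limit of 3 reads that a count of 0 allows cover counting error only. The members, loci and lists were chosen with earlier results of these data known. By rule, any member or gene of the lists of other imprinted genes and of imprint setting could be named, with values in every library for the 8 highest and 8 lowest called members and for the paired genes. Alternatives were other scalings (RLE, upper-quartile, library size alone), no low-count filter, DESeq2 1.42.0, a replicate block, other pseudocounts, summed CPM for marker lists, and leaving out each library.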

Additional observations from a re-analysis of the deposited data

How the results depend on the processing

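Of the 26 called members, 19 kept their call under all 12 alternatives of the fit, 7 lost it under at least 1 (Gnas, Impact, Meg3, Mkrn3, Ppp1r9a, Rasgrf1 and Slc22a18) and 0 changed sign. Library size alone raised every tested member by 0.59 to 0.63 on the log2 scale. It gave 27 members higher and 4 lower, maternally expressed members lower 2, transcript-dependent members higher 4 and lower 0, and imprint setting genes lower 1. The median of all genes was -0.01 with RLE and 0.38 with upper-quartile factors. Leaving out 1 library gave 16 to 18 members higher and 8 to 9 lower.

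Of the 12 members not called, 11 changed sign under at least 1 alternative, and the cause was not tested. Calls were gained with library size alone by 9 (Cd81, Copg2, Dcn, Grb10, H13, Igf2, Peg10, Peg3 and Ube3a, all higher), with upper-quartile factors by 1 (Copg2), without the first Stra8-deficient library by 1 (Sgce, higher) and without the third by 2 (Copg2 higher, Mcts2 lower). Upper-quartile factors and library size alone gave Peg10 0.19 and 0.53, Ube3a 0.13 and 0.47, Mcts2 0.00 and 0.34, H13 0.16 and 0.49, and Plagl1 0.15 and 0.49. RLE and DESeq2 gave Igf2 -0.06 each and Cd81 -0.08 each. Without 1 library the sign-changed values were -0.16 and -0.09 for Igf2, -0.25, -0.03 and -0.01 for Cd81, -0.02 for Peg3, -0.03 and -0.01 for Sgce, -0.06 for Grb10, 0.04 and 0.05 for Plagl1 and -0.26 for Dcn. The other end of the range without 1 library was 0.18 for Igf2, 0.26 for Cd81, 0.50 for Peg3, 0.59 for Sgce, 0.35 for Grb10, -0.54 for Plagl1 and 1.37 for Dcn.

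With a pseudocount of 5, Peg3 over Zim1 differed by -1.33 and Peg10 over Asb4 by 6.30. Leaving out 1 library, the pair differences ranged from -4.77 to -3.86 (Igf2 over H19), 2.51 to 3.94 (Dlk1 over Meg3), -6.99 to -5.28 (Kcnq1ot1 over Cdkn1c) and -0.14 to 1.18 (Snrpn over Ube3a). For marker lists, log2 ratios by summed CPM in place of shares of reads were 4.56 for undifferentiated spermatogonia (5.18 by shares), 0.95 for peritubular and stromal cells (1.56), 1.33 for endothelial cells (1.96) and -10.52 for spermatids (-9.90). Without 1 library they ranged from -2.06 to -0.91 for Sertoli cells, from 3.04 to 4.15 for macrophages and from -1.99 to 1.04 for Leydig cells.

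The replicate numbers do not pair the libraries: the correlations of same-numbered libraries' deviations were 0.0626, 0.105 and -0.0451. With a replicate block, 18 members were higher and 8 lower, and Cd81 was -0.03. Depth limits the members at or under a few reads per library (Ins2, Rtl1, Magel2, Snrpn, Peg12, and Phlda2 and Zim1 in wild type), and age and cell makeup follow genotype in all results.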

Other observations

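Imprinted genes outside the list of 43 also moved in both directions. Of 39 named, 36 were in all 6 files (Zfp264, Snhg14 and Zim2 were not) and 25 were tested, of which 8 rose, 12 fell and 5 were not called in Stra8-deficient testes (80.0% called, median log2 fold change -0.35, against 75.8% and 0.11 over all genes tested). The maternal RNAs downstream of Meg3 went opposite ways. Rian, a host of small nucleolar RNAs, had 6.51, 16.1 and 10.4 CPM in Stra8-deficient testes, against 0.312, 0.564 and 1.83 CPM in wild type. It rose 12.5-fold (edgeR, adjusted p = 5.29e-04). Mirg, a host of microRNAs, had 2.00, 2.95 and 2.54 CPM in Stra8-deficient testes, against 21.7, 19.6 and 20.3 CPM in wild type. It fell 8.17-fold (edgeR, adjusted p = 9.48e-06), and neither RNA overlapped between genotypes.

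At the Peg13 locus, the paternal RNA Peg13 fell 5.44-fold (edgeR, adjusted p = 1.81e-04) and Trappc9, the vesicle trafficking gene in which it lies, fell 14.4-fold (edgeR, adjusted p = 1.95e-06). Gatm, an enzyme of creatine synthesis, fell 11.1-fold (edgeR, adjusted p = 1.53e-06). Slc22a3, an organic cation transporter near Igf2r, had 0, 1 and 1 reads in Stra8-deficient testes, against 57, 43 and 21 in wild type, a ratio of 0.00885 with a 95% counting interval of 0.00106 to 0.0327. Dlx5, a homeobox gene of the Peg10 region, had 0 reads in the Stra8-deficient libraries and 82 in wild type, at least 51.1-fold lower. Usp29, which neighbours Peg3, rose 8.10-fold (edgeR, adjusted p = 7.72e-04).

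Of 19 tested genes that set, keep or erase imprints, 10 rose and 3 fell in Stra8-deficient testes. That is 68.4% called, below the 75.8% of all genes tested, so the count is no result about these genes as a group. The methyltransferases Dnmt3a and Dnmt3b, which set methylation, rose 5.82-fold and 9.36-fold, and Dnmt3l, their cofactor in germ cells, rose 3.69-fold (edgeR, adjusted p = 1.44e-06, 4.13e-05 and 1.30e-04). Dnmt1, which copies methylation after replication, rose 2.96-fold (edgeR, adjusted p = 2.50e-04), and Tet3, which oxidises methylated cytosine, rose 10.3-fold (edgeR, adjusted p = 1.30e-06). The lower genes included Zfp57, which binds methylated imprint control regions, and Trim28, its partner. Zfp57 had 12.5, 12.5 and 12.6 CPM in Stra8-deficient testes, against 37.4, 38.9 and 40.1 CPM in wild type, and fell 3.09-fold (edgeR, adjusted p = 3.99e-05). Trim28 had 452, 197 and 212 CPM in Stra8-deficient testes, against 749, 759 and 713 CPM in wild type, and fell 2.58-fold (edgeR, adjusted p = 0.00320). With library size alone, 1 of the 19 was called lower, Zfp57. Uhrf1, the cofactor of DNMT1, and Tet1 were not called.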
